A study of Bactrocera dorsalis with 16 samples.

Results

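Insect cuticle proteins, resilins and chitin-degrading enzymes were followed through the first 13 days of adult life in the oriental fruit fly, Bactrocera dorsalis, a pest of fruit crops. The set was chosen by product name: every gene whose description contains cuticle, cuticular, resilin or chitin, and whose mean reached 1 FPKM (fragments counted per transcript, scaled to transcript length and library size) in at least 1 group of libraries. The description matched 95 of 13759 genes, and 53 of these passed the floor of 1 FPKM. They comprise 42 structural cuticle proteins (10 endocuticle proteins, 14 other cuticle proteins, 11 named as larval, 5 named as pupal and 2 resilins), 10 members of the chitinase family and 1 gene matched by name only. That gene, protein naked cuticle homolog 2-like (MSTRG.1121), is named for a regulator of Wnt signalling known from Drosophila, and stayed at or below 4.16 FPKM. The member just inside the floor, larval cuticle protein 2-like (MSTRG.7425), had a highest group mean of 1.33 FPKM, and the gene just outside it, a probable chitinase 3 (MSTRG.8532), one of 0.777 FPKM.

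RNA was sequenced from ovary and fat body of adult females at 1, 5, 9 and 13 days after eclosion, the emergence of the adult. Each of the 8 tissue-by-day groups holds 2 libraries, described by the submitters as biological replicates, which makes 16 libraries in all. The flies were kept at 28 °C on a diet of yeast extract and sugar, and no group carried a mutation or an added treatment. The labels do not say how many females were pooled per library.

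Cuticle is an extracellular layer of chitin fibres embedded in structural proteins, secreted by epidermal cells and by other epithelia of ectodermal origin. Its outer layers are laid down before a moult, and in many insects the inner layers, the endocuticle, go on being deposited after the adult has emerged. Resilin is its rubber-like elastic protein, and chitinases and related enzymes break chitin down when old cuticle is shed. Larval, pupal and adult in a product name record the stage or species in which the family was first described, and do not limit a gene to that stage. Fat body lines the inside of the body wall, close to the epidermis, and is the main site of insect metabolism and of yolk protein synthesis.

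Most of these genes had their highest level in fat body, and most of those fell steeply with adult age. Summed over the 42 structural members, cuticle transcripts made up 0.403% and 0.374% of all FPKM in the day 1 ovary libraries, 0.422% and 0.367% at day 5, 0.239% and 0.234% at day 9, and 0.195% and 0.190% at day 13. In fat body the same sum was 4.38% and 4.36% at day 1, 6.34% and 5.59% at day 5, 1.225% and 1.2317% at day 9, and 0.462% and 0.363% at day 13. On each day both ovary libraries lay below both fat body libraries on this measure. A single locus, pupal cuticle protein Edg-78E, partial (MSTRG.1756), held 64.2% to 84.2% of the ovary sum. In fat body the leading gene changed with age: adult cuticle protein 1 (MSTRG.9932) at days 1 and 9, the endocuticle locus MSTRG.11139 at day 5, and cuticle protein 16.8 (MSTRG.4089) at day 13, where it alone held 38.6% and 73.1% of the sum. The fat body sum was 17330 and 15784 FPKM at day 1 and 1754 and 1411 at day 13. Much of that fall lay in the 4 most abundant structural members (MSTRG.11139, MSTRG.9932, MSTRG.3009 and MSTRG.8919). Without those 4 the fat body sum was 2477 and 2510 FPKM at day 1, 4282 and 3796 at day 5, 1705 and 1922 at day 9, and 1123 and 1346 at day 13.

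**Figure D1:**
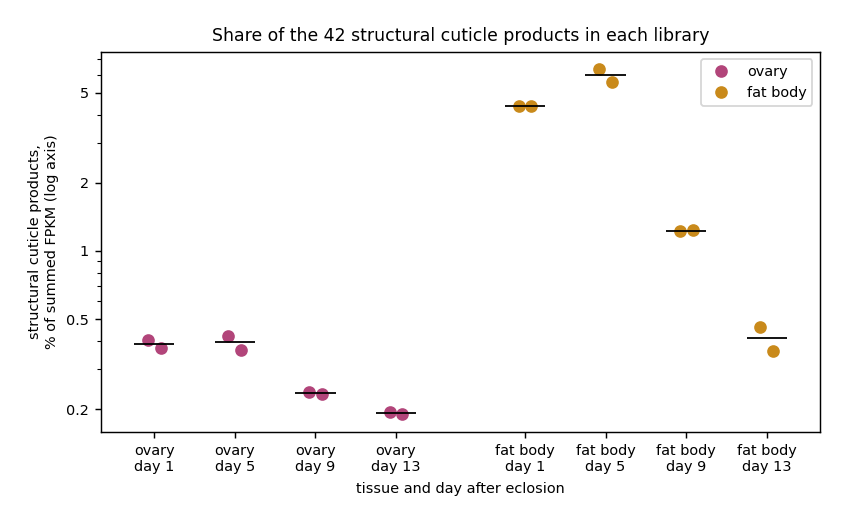
Share of all FPKM, in percent on a log axis, held by the 42 structural cuticle members in each library, by tissue and days after eclosion, with 1 point per library and a bar at the mean of the 2. The ovary points lie between 0.190% and 0.422%, and the fat body points reach 6.34% at day 5 and 0.363% at day 13.

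The depth of the libraries is not known in reads, since FPKM keeps no total. A rough relative depth was taken from the most common ratio of low values to those of the first day 1 ovary library. It ran from 0.858 to 1.106 times that library. Only ratios within a set range around equal depth were searched, so a larger difference could not have appeared. The most common ratio was shared by only 11 to 21 genes per library. The FPKM of a library summed to between 290383 and 405928. Markers of the labelled tissues went with the labels. The 4 germline markers (such as vasa and nanos) summed to 387 to 766 FPKM in ovary libraries and 10.3 to 29.1 FPKM in fat body libraries, while 7 fat body markers summed to 275 to 418 FPKM in ovary and 578 to 2708 FPKM in fat body. The 29 muscle markers that passed the floor were also high in fat body libraries, at 6743 and 7347 FPKM at day 1, 18608 and 18439 at day 5, 17355 and 14503 at day 9, and 8361 and 7253 at day 13. In ovary they summed to 4809 and 3592 FPKM at day 1, 6791 and 6462 at day 5, 1299.9 and 724 at day 9, and 596 and 517 at day 13. No marker list for epidermis was used, so the cells that made these transcripts were not identified. As in any bulk sample, fewer cells of a type and less RNA per cell cannot be told apart. Among the members, replicates differed most in the day 13 fat body. Of the 35 members above the floor there, 9 differed 4-fold or more, 7 of them higher in replicate 1, against 5.22% of all genes. Over all genes that share was highest in the day 1 ovary, at 6.07%.

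**Figure D2:**
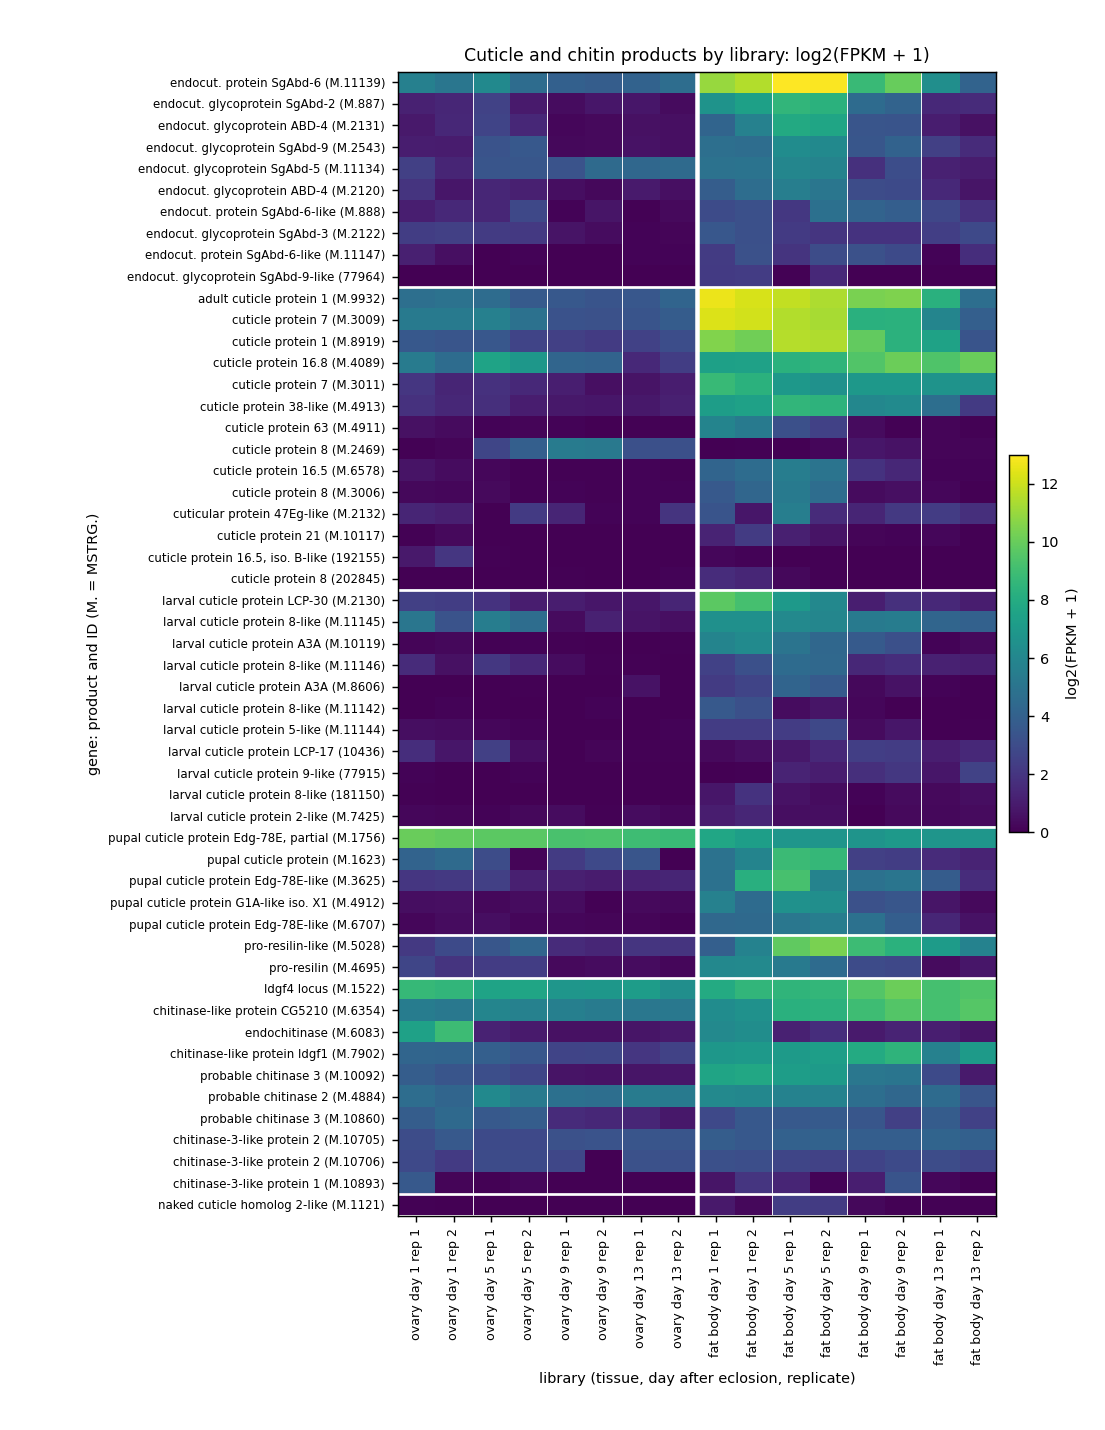
Expression of all 53 members in the 16 libraries as log2(FPKM + 1), with genes in rows by role, ovary columns left of fat body columns and days from 1 to 13 within each tissue. In most rows the highest values are in fat body at day 1 or day 5.

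Differences were tested with limma on log2(FPKM + 1) over all 10213 genes that passed the floor, and a gene is called where its Benjamini-Hochberg adjusted p is below 0.05. All differences below are on that log2 scale, given with their standard error, and they understate changes of low genes. Ovary was set against fat body over the 4 days together. Of the 53 members, 3 were called higher and 43 lower in ovary. Among all genes 82.3% were called, 57.4% higher and 24.9% lower. The median difference was -2.01 over the members and 0.58 over all genes. The median of all genes depends on scaling, and moved to 0.009 with median-of-ratios scaling and 0.21 with quantile normalization, and the share of calls that were higher in ovary was 69.75% as deposited, 50.3% with the first and 58.23% with the second. Under those scalings 2 members were higher and 48 lower, and 2 higher and 47 lower. A member that passed the floor only because fat body was high had to differ, so these counts are a description of the set.

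By day, with no test, all ovary libraries lay below all fat body libraries for 42 members at day 1, 41 at day 5, 41 at day 9 and 29 at day 13. The median difference over the members was -2.28, -2.48, -1.93 and -0.42 in the same order of days. Ovary lay above fat body for 5, 3, 4 and 5 members, and the libraries overlapped for the rest. The same counts were not made over all genes, so they describe the set and give no comparison with other genes. The number of members at 1 FPKM or more was 17 to 34 per ovary library and 29 to 47 per fat body library.

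**Figure D3:**
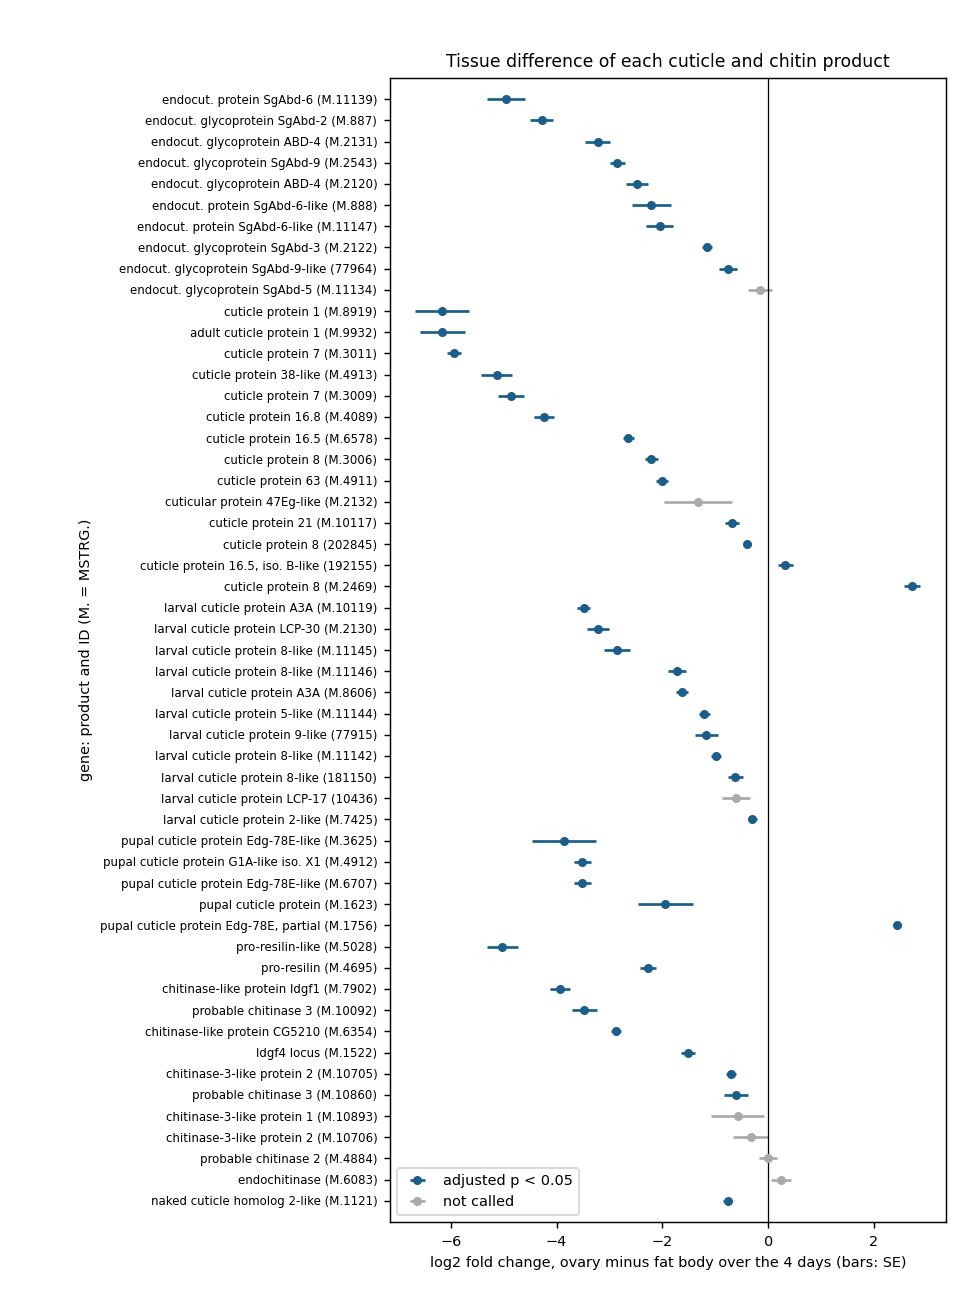
Ovary minus fat body difference of each member over the 4 days, on log2(FPKM + 1) with standard errors, by role. Positive values are higher in ovary, and MSTRG.1756, MSTRG.2469 and 192155 were the members called on that side (M. in the figure stands for MSTRG.).

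The highest member in ovary was MSTRG.1756, whose name comes from a Drosophila pupal cuticle gene that depends on the moulting hormone ecdysone. It measured 1039.5 and 929.5 FPKM at day 1, 844 and 813 at day 5, 620.0 and 627 at day 9 and 491 and 442 at day 13 in ovary. Its fat body levels were 204 and 156 FPKM at day 1, 114 and 111 at day 5, 106 and 131 at day 9 and 111 and 112 at day 13. The lowest ovary library was above the highest fat body library, and the difference was 2.44 ± 0.07 (adjusted p = 2.49e-10). It was the only called member whose ovary and fat body libraries did not overlap with ovary the higher. In the table this locus is assembled from reads and its description is partial, so its level rests on that assembly.

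Cuticle protein 8 (MSTRG.2469) followed ovarian age. It measured 0.0596 and 0.118 FPKM at day 1, 5.54 and 14.3 at day 5, 40.9 and 37.6 at day 9 and 8.12 and 8.05 at day 13 in ovary. The values were 0 and 0.0694 FPKM at day 1, 0 and 0.192 at day 5, 0.711 and 0.542 at day 9 and 0.151 and 0.123 at day 13 in fat body. Both day 9 ovary libraries were above all others, and every fat body library was below 1 FPKM. The tissue difference was 2.72 ± 0.15 (adjusted p = 2.57e-08). Within ovary it rose by 3.20 ± 0.31 at day 5 against day 1 (adjusted p = 0.000129) and by 2.01 ± 0.31 at day 9 against day 5 (adjusted p = 0.000511), then changed by -2.15 ± 0.31 at day 13 against day 9 (adjusted p = 0.00735). The first and last of these calls were lost in fits to only the 4 libraries compared. Markers of follicle cells, the epithelium that makes the eggshell, also peaked in the day 9 ovaries: 4 such genes summed to 9.97 and 5.90 FPKM at day 1, 12.6 and 7.95 at day 5, 5714 and 10654 at day 9, and 2346 and 2938 at day 13. In fat body the same 4 genes summed to 184 and 50.8 FPKM at day 9, against 8.15 to 25.6 FPKM in libraries of the other days. The part of these markers in this result was not tested. A second gene with the product name cuticle protein 8 (MSTRG.3006) stayed at 0.0522 to 0.249 FPKM in ovary and reached 38.2 FPKM in fat body, and reads could be divided between such copies. Of the 53 members, 21 share a product name with another, so levels within such groups are uncertain.

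In fat body the members moved in both directions at day 5 and mostly fell after it. At day 5 against day 1 in fat body, 10 members rose and 12 fell, or 13 and 10 with median-of-ratios scaling (14.5% of all genes were called, 3.8% higher and 10.7% lower). At day 9 against day 5, 3 rose and 22 fell (11.1% of all genes, 5.53% higher and 5.6% lower), and at day 13 against day 9, 1 rose and 16 fell (7.16% of all genes, 1.73% higher and 5.42% lower). The median fat body difference over the members was 0.29, -1.18 and -0.53 at the 3 steps, beside -0.11, -0.05 and -0.07 over all genes. A member that passed the floor only on an early fat body day lay lower afterwards by that choice. One such member was 77964, with a fat body mean of 3.78 FPKM at day 1 and 0 at days 9 and 13. These step counts, and those by role below, therefore describe the set. Neighbouring steps share libraries, since the day 5 libraries enter the first and the second. Fits to only the 4 libraries of a step called 5 members at the first step and 0 at the last, where the smallest adjusted p was 0.0893, 27 members had an unadjusted p below 0.05, and 1 gene was called among all genes. The 3 that rose at day 9 against day 5 became 0 without day 5 replicate 1, day 5 replicate 2 or day 9 replicate 2, and in the fit to only those 4 libraries. The 1 that rose at day 13 against day 9, SgAbd-3 (MSTRG.2122), was lost without day 9 replicate 1, day 9 replicate 2 or day 13 replicate 2, with no floor, with a pseudocount of 0.1, with the replicate block and in the fit to only those 4 libraries. At the last step 11 members were called without day 9 replicate 1 and 10 without day 9 replicate 2.

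In ovary fewer members changed. At day 5 against day 1, 5 rose and 3 fell (23.8% of all genes were called, 7.42% higher and 16.3% lower), at day 9 against day 5, 1 rose and 14 fell (38.0% of all genes, 13.9% higher and 24.1% lower), and at day 13 against day 9, 0 rose and 2 fell (4.22% of all genes, 1.63% higher and 2.59% lower; 1 member higher and 3 lower at an unadjusted p below 0.05). The shares of members called were therefore near or below those of all genes. Without the first day 5 ovary library 9 members were called at day 9 against day 5, and without the first day 13 ovary library 1 at day 13 against day 9. Fits to only the 4 libraries of a step called 3 members at the first step and 0 at the last, where the smallest adjusted p was 0.064 and 8 members had an unadjusted p below 0.05. Of the 29 muscle markers 2 rose and 18 fell in ovary at day 9 against day 5, and of the 27 oenocyte markers (the hydrocarbon-making cells attached to the epidermis) 2 rose and 11 fell. Oenocyte markers summed to 283 and 265 FPKM at day 9, against 437 and 319.9 FPKM at day 5. The sums of 7 hemocyte and 5 neuron markers also lay lower at day 9. Those of 22 gut markers went the other way, at 3562 and 3743 FPKM at day 9, against 385 and 1095.5 FPKM at day 5. The part of these cell types in the members' falls at that step was not tested. No step was called for 34 of the 53 members in ovary and for 15 in fat body. That count was not made over all genes, so it has no share to be set against.

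Of the 37 members whose fat body mean reached 10 FPKM on some day, 25 had a day 13 mean below 10% of their highest, 13 of these below 1%. Those that kept 50% or more were MSTRG.10705, MSTRG.10860, MSTRG.1522, MSTRG.1756, MSTRG.4089 and MSTRG.6354, which include 4 members of the chitinase family. The highest fat body day was day 1 for 17 structural members, day 5 for 19, day 9 for 5 and day 13 for 1. These counts were not made over all genes, and a mean set against its own highest can only be equal or lower. They describe the set and give no comparison with other genes. Muscle markers in fat body went up at day 5 and down by day 13, as given above. Of the 29, 13 were called higher and 2 lower at day 5 against day 1 (3.8% and 10.7% of all genes). At day 13 against day 9, 0 were higher and 9 lower (1.73% and 5.42% of all genes). At the step between, where 22 members fell and 3 rose, their sums were 18608 and 18439 FPKM at day 5 and 17355 and 14503 at day 9. Oenocyte markers summed to 3076 and 2747 FPKM in fat body at day 1, 2455 and 2391 at day 5, 1862 and 2017 at day 9, and 1858 and 1944 at day 13. Their part in the members' changes was not tested.

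**Figure D4:**
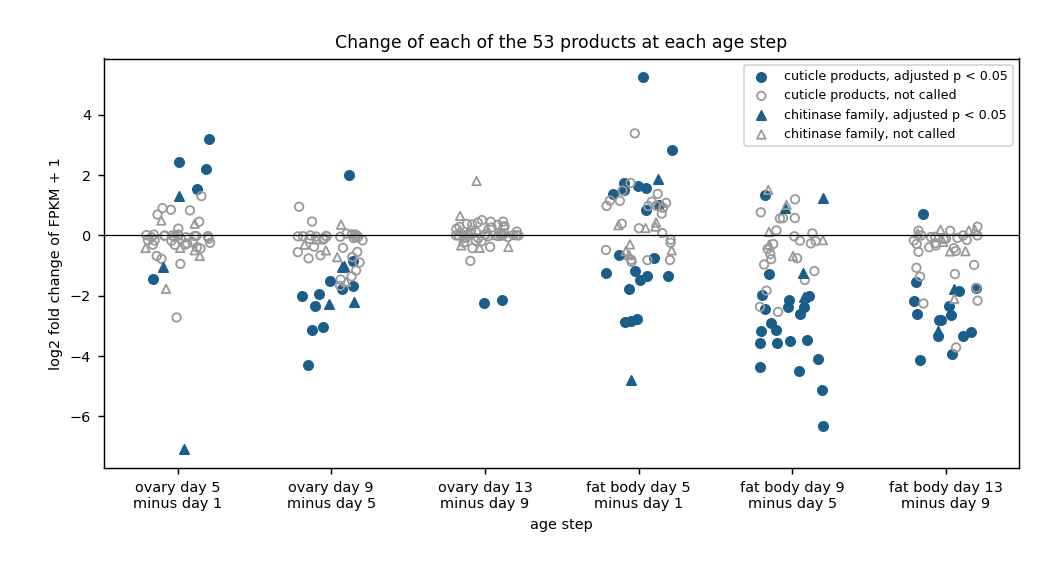
Difference of each member at each age step on log2(FPKM + 1), with ovary columns left of fat body columns, circles for cuticle products, triangles for the chitinase family and filled symbols for calls at an adjusted p below 0.05. Fat body points lie mostly below 0 at the last 2 steps, where 22 and 16 members fell.

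The names of the endocuticle proteins, SgAbd and ABD, come from abdominal cuticle of locusts (SgAbd from Schistocerca gregaria). Of the 10, 9 were called lower in ovary than in fat body and 0 higher (24.9% of all genes were lower and 57.4% higher). In fat body 0 rose and 6 fell at day 9 against day 5 (11.1% of all genes called, 5.53% higher and 5.6% lower). At day 13 against day 9, 1 rose and 6 fell there (7.16% called, 1.73% higher and 5.42% lower). The most abundant was MSTRG.11139, a locus that carries both the name SgAbd-6 and that of a larval cuticle protein 8-like gene, so 2 products cannot be separated in it. In ovary it measured 49.9 and 33.5 FPKM at day 1, 70.95 and 23.04 at day 5, 14.8 and 13.4 at day 9 and 16.3 and 23.8 at day 13. In fat body it measured 2025 and 2881 FPKM at day 1, 8304 and 7849.6 at day 5, 452 and 1008 at day 9 and 84.8 and 16.4 at day 13. The day 5 fat body libraries were the highest of the 16 and the second day 13 fat body library had come down among the ovary values. The tissue difference was -4.96 ± 0.36 (adjusted p = 2.23e-07). The fat body difference was -3.58 ± 0.71 (adjusted p = 0.00893) at day 9 against day 5, a call lost without day 5 replicate 1 (-3.54) or day 9 replicate 1 (-3.00), and -4.13 ± 0.71 (adjusted p = 0.00825) at day 13 against day 9, lost without day 9 replicate 2 (-3.55).

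SgAbd-2 (MSTRG.887) and an ABD-4 gene (MSTRG.2131) peaked at day 5 in fat body as well. SgAbd-2 measured at most 4.96 FPKM in ovary, and 103 and 168 FPKM at day 1, 378 and 313 at day 5, 22.3 and 16.7 at day 9 and 1.85 and 2.02 at day 13 in fat body. A fat body fall followed at day 9 against day 5, with a difference of -4.08 ± 0.44 (adjusted p = 0.000281), and the day 9 libraries did not overlap those of day 5. The ABD-4 gene measured at most 5.33 FPKM in ovary, and 17.3 and 50.8 FPKM at day 1, 241 and 201 at day 5, 9.85 and 9.41 at day 9 and 1.07 and 0.494 at day 13 in fat body. It rose in fat body by 2.84 ± 0.47 at day 5 against day 1 (adjusted p = 0.00359) and fell at day 9 against day 5, with a difference of -4.38 ± 0.47 (adjusted p = 0.000281). The rise was lost in a fit to only those 4 libraries, while the falls of both genes held under each setting tried. A second ABD-4 gene (MSTRG.2120) measured at most 2.86 FPKM in ovary, and 13.2 and 24.4 FPKM at day 1, 46.7 and 32.9 at day 5, 7.17 and 6.47 at day 9 and 1.79 and 0.687 at day 13 in fat body.

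SgAbd-9 (MSTRG.2543) was the endocuticle member that rose and fell in both tissues. It measured 1.03 and 0.977 FPKM at day 1, 8.91 and 11.1 at day 5, 0.227 and 0.271 at day 9 and 0.543 and 0.458 at day 13 in ovary. The values were 25.6 and 23.8 FPKM at day 1, 78.6 and 71.3 at day 5, 10.2 and 16.1 at day 9 and 4.51 and 2.05 at day 13 in fat body. Day 5 was the highest day in both, with no overlap with the neighbouring days. At day 5 against day 1 the difference was 2.45 ± 0.27 (adjusted p = 0.00025) in ovary and 1.56 ± 0.27 (adjusted p = 0.00411) in fat body. The difference was -3.13 ± 0.27 (adjusted p = 1.24e-05) in ovary and -2.45 ± 0.27 (adjusted p = 0.000287) in fat body at day 9 against day 5. All 4 calls held under each setting tried.

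SgAbd-5 (MSTRG.11134) took different courses in the 2 tissues. In ovary it measured 4.45 and 1.58 FPKM at day 1, 9.59 and 10.2 at day 5, 8.96 and 21.6 at day 9 and 19.6 and 21.2 at day 13. Its fat body levels were 28.5 and 30.2 FPKM at day 1, 61.7 and 55.5 at day 5, 2.52 and 7.32 at day 9 and 1.25 and 0.963 at day 13. At day 13 both ovary libraries were above both fat body libraries, and at day 1 both were below. The step at day 9 against day 5 differed by 3.92 ± 0.65 (adjusted p = 0.0018) between ovary and fat body, since the fat body difference was -3.46 ± 0.46 (adjusted p = 0.000979) and the ovary one 0.46 ± 0.46 (adjusted p = 0.486). Over the 4 days the tissues were not called different (-0.16 ± 0.23 (adjusted p = 0.532)). SgAbd-3 (MSTRG.2122) was low, at 4.18 and 4.58 FPKM at day 1, 3.76 and 3.45 at day 5, 0.592 and 0.328 at day 9 and 0.111 and 0.123 at day 13 in ovary and 10.5 and 7.88 FPKM at day 1, 3.56 and 3.03 at day 5, 2.73 and 2.81 at day 9 and 4.33 and 6.28 at day 13 in fat body. It fell in ovary at day 9 against day 5, with a difference of -1.66 ± 0.19 (adjusted p = 8.35e-05). Its fat body level fell at day 5 against day 1, with a difference of -1.24 ± 0.19 (adjusted p = 0.00251). It rose there at day 13 against day 9 by 0.72 ± 0.19 (adjusted p = 0.0499), a call lost under the settings named above (0.71, 0.74 and 0.50 without those 3 libraries).

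**Figure D5:**
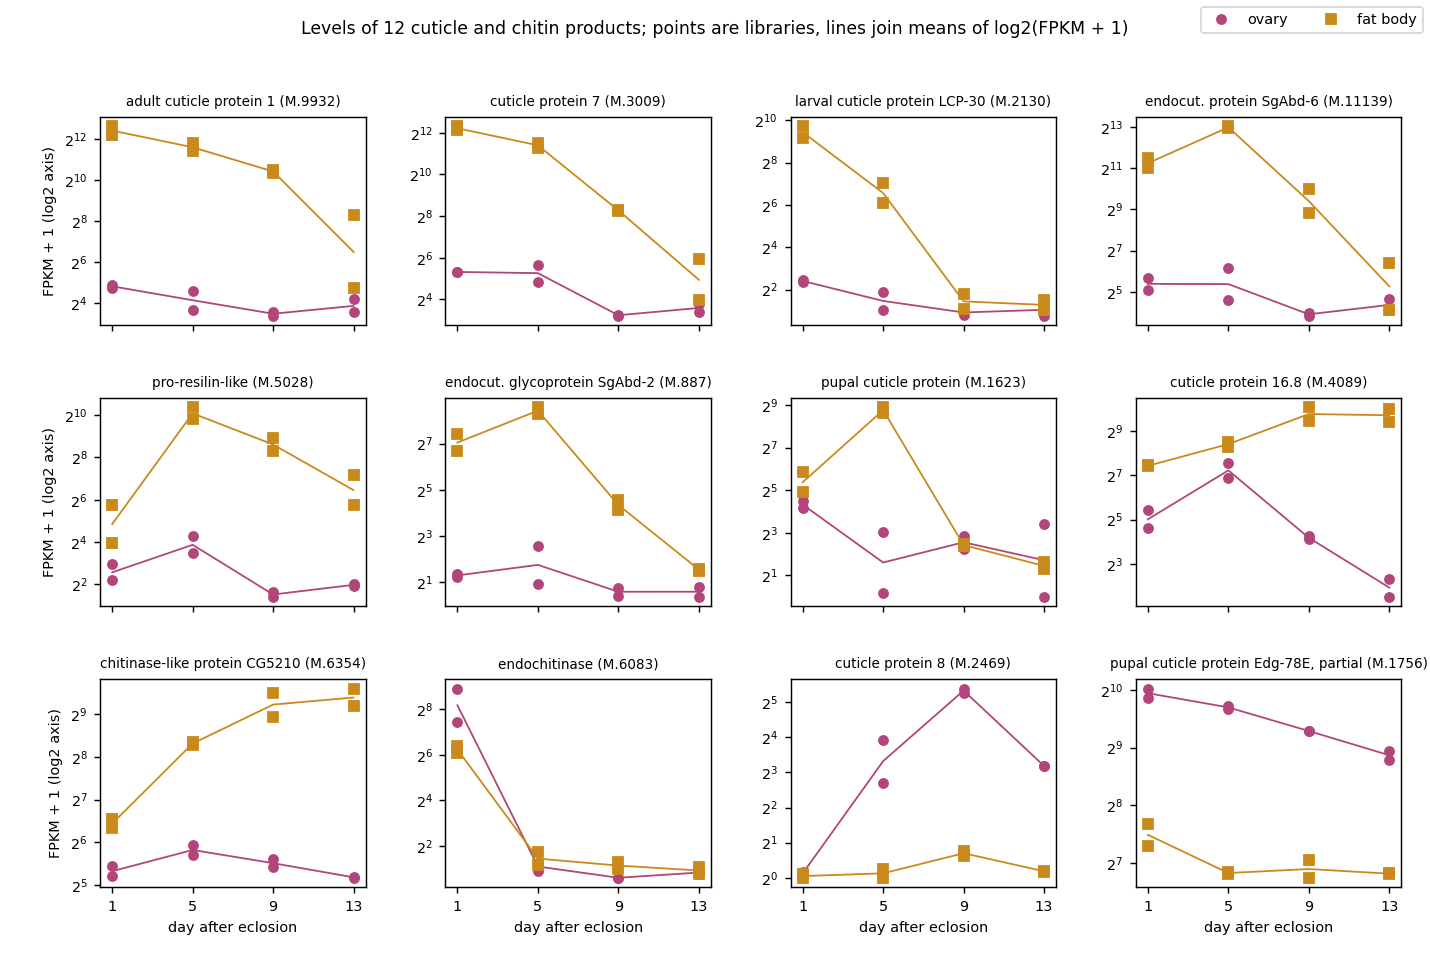
Levels of 12 members as FPKM + 1 on a log2 axis against days after eclosion, with 1 point per library and lines joining the means of log2(FPKM + 1), for ovary (circles) and fat body (squares). Fat body falls by orders of magnitude for adult cuticle protein 1 (MSTRG.9932), cuticle protein 7 (MSTRG.3009) and the endocuticle locus MSTRG.11139, while cuticle protein 16.8 (MSTRG.4089) stays high in fat body and drops in ovary.

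Among the 14 other cuticle proteins, 2 were called higher in ovary and 11 lower (57.4% of all genes were higher and 24.9% lower). Adult cuticle protein 1 (MSTRG.9932), related to a protein of the adult Drosophila cuticle, was the most abundant member at day 1. In ovary it measured 25.8 and 28.8 FPKM at day 1, 23.4 and 11.7 at day 5, 10.9 and 9.44 at day 9 and 10.7 and 17.2 at day 13. In fat body it measured 6294 and 4765 FPKM at day 1, 3564 and 2718 at day 5, 1319 and 1428 at day 9 and 309 and 25.2 at day 13. Both fat body libraries were lower on each sampled day than on the one before, and replicate 2 at day 13 was within the ovary range. The tissue difference was -6.16 ± 0.42 (adjusted p = 1.61e-07). At day 13 against day 9 the fat body difference was -3.93 ± 0.85 (adjusted p = 0.0211), and the call was lost without day 9 replicate 1 (-3.99) or day 9 replicate 2 (-3.87).

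Cuticle protein 7 (MSTRG.3009) was also highest at day 1 in fat body. It measured 38.9 and 39.003 FPKM at day 1, 49.6 and 28.04 at day 5, 8.60 and 8.30 at day 9 and 9.43 and 12.9 at day 13 in ovary. The values were 5052 and 4484 FPKM at day 1, 2912 and 2496 at day 5, 307 and 311 at day 9 and 59.9 and 14.5 at day 13 in fat body. It fell in fat body at day 9 against day 5, with a difference of -3.12 ± 0.49 (adjusted p = 0.00262), and again at day 13 against day 9, with one of -3.33 ± 0.49 (adjusted p = 0.00394). A second gene of that name (MSTRG.3011) did not follow it after day 5. It measured at most 3.15 FPKM in ovary, and 428 and 318 FPKM at day 1, 120.4 and 94.96 at day 5, 121 and 119 at day 9 and 102 and 95.002 at day 13 in fat body. Every ovary library was below every fat body library. In fat body it fell at day 5 against day 1, with a difference of -1.78 ± 0.27 (adjusted p = 0.00222), a call lost in a fit to those 4 libraries alone. It was not called in fat body at day 9 against day 5 (0.17 ± 0.27 (adjusted p = 0.805)) or at day 13 against day 9 (-0.28 ± 0.27 (adjusted p = 0.665)).

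Cuticle protein 1 (MSTRG.8919) measured 3.82 to 10.8 FPKM in ovary and 1482 and 1146 FPKM at day 1, 3040.0 and 2770.1 at day 5, 955 and 331 at day 9 and 178 and 9.33 at day 13 in fat body. Its difference between the tissues was -6.17 ± 0.51 (adjusted p = 6.95e-07), and the second day 13 fat body library overlapped the ovary range. Cuticle protein 38-like (MSTRG.4913) measured 0.748 to 2.55 FPKM in ovary and 150.4 and 172 FPKM at day 1, 378 and 337 at day 5, 63.3 and 72.3 at day 9 and 24.5 and 3.67 at day 13 in fat body, with no overlap and a difference of -5.13 ± 0.29 (adjusted p = 3.4e-08). Cuticle protein 63 (MSTRG.4911) stayed at or below 0.494 FPKM in ovary and measured 57.3 and 40.3 FPKM at day 1, 8.08 and 4.62 at day 5, 0.289 and 0.0639 at day 9 and 0.114 and 0.0574 at day 13 in fat body. It fell in fat body at day 5 against day 1, with a difference of -2.78 ± 0.24 (adjusted p = 9.72e-05), a call lost in a fit to those 4 libraries alone. It fell again at day 9 against day 5, with a difference of -2.61 ± 0.24 (adjusted p = 0.000104). Cuticle protein 16.5 (MSTRG.6578) and MSTRG.3006 peaked at day 5 in fat body at 37.5 ± 9.16 and 31.1 ± 9.96 FPKM (SD, n = 2) and both fell at day 9 against day 5. The difference was -3.57 ± 0.22 (adjusted p = 1.08e-05) for cuticle protein 16.5 and -4.51 ± 0.25 (adjusted p = 7.01e-06) for MSTRG.3006.

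Cuticle protein 16.8 (MSTRG.4089) stayed high in old fat body. Among the other cuticle proteins whose fat body mean reached 10 FPKM, only this gene kept 50% or more of its highest mean at day 13. Outside this role MSTRG.1756 and 4 members of the chitinase family did so as well. Within it, MSTRG.3011 held 94.96 to 121 FPKM from day 5 on, below its day 1 level. In ovary MSTRG.4089 measured 42.2 and 23.2 FPKM at day 1, 188 and 117 at day 5, 17.9 and 16.4 at day 9 and 1.87 and 4.07 at day 13. Its fat body levels were 169 and 173 FPKM at day 1, 313 and 366 at day 5, 708 and 1066 at day 9 and 678 and 1031 at day 13. Day 9 and day 13 were the highest days in fat body and day 5 the highest in ovary. At day 9 against day 5 the difference was -3.04 ± 0.37 (adjusted p = 0.000109) in ovary and 1.36 ± 0.37 (adjusted p = 0.0397) in fat body, and the 2 steps differed by -4.40 ± 0.52 (adjusted p = 0.000257). It was the only member called in opposite directions in the tissues at 1 step, and the fat body call was lost without day 5 replicate 1 (1.25), day 5 replicate 2 (1.47) or day 9 replicate 2 (1.06). In ovary it also differed by -2.25 ± 0.37 (adjusted p = 0.0112) at day 13 against day 9, a call lost without day 9 replicate 1 (-2.19) or day 13 replicate 1 (-1.84). One further member of this role, 192155 (cuticle protein 16.5, isoform B-like), reached 3.13 FPKM in 1 day 1 ovary library and was at 0 in every ovary library of days 9 and 13. Its tissue difference was 0.33 ± 0.14 (adjusted p = 0.0465), a call that was lost under both other scalings, with the replicate block (adjusted p = 0.0502) and without any 1 library other than the 2 day 1 ovary ones (0.31 to 0.34).

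The 11 larval-named proteins included 10 called lower in ovary and 0 higher (24.9% of all genes were lower and 57.4% higher). LCP-30 (MSTRG.2130), named after a larval protein of the silkworm, measured 4.47 and 4.17 FPKM at day 1, 2.72 and 1.05 at day 5, 1.05 and 0.753 at day 9 and 0.706 and 1.51 at day 13 in ovary, and 831 and 572 FPKM at day 1, 132 and 66.1 at day 5, 1.11 and 2.52 at day 9 and 1.84 and 1.08 at day 13 in fat body. Only the day 1 and day 5 fat body libraries stood above the ovary range. It fell in fat body at day 5 against day 1, with a difference of -2.87 ± 0.40 (adjusted p = 0.0015), a call lost in a fit to those 4 libraries alone. It fell again at day 9 against day 5, with a difference of -5.11 ± 0.40 (adjusted p = 4.44e-05), and its day 9 and day 13 libraries lay within the ovary range.

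Several genes are named larval cuticle protein 8-like. MSTRG.11145 measured 33.8 and 9.00 FPKM at day 1, 44.3 and 23.96 at day 5, 0.302 and 1.296 at day 9 and 0.593 and 0.459 at day 13 in ovary, and 90.7 and 91.2 FPKM at day 1, 68.2 and 61.6 at day 5, 40.3 and 43.4 at day 9 and 17.7 and 15.6 at day 13 in fat body. The ovary libraries of days 9 and 13 were far below those of days 1 and 5, while in fat body the levels of the 4 days did not overlap. The ovary difference at day 9 against day 5 was -4.28 ± 0.49 (adjusted p = 7.97e-05), and that step differed from the fat body step by -3.66 ± 0.69 (adjusted p = 0.00359). MSTRG.11142 was at or below 0.0939 FPKM in ovary and measured 11.4 and 8.01 FPKM at day 1, 0.329 and 0.656 at day 5, 0.181 and 0 at day 9 and 0 and 0 at day 13 in fat body. It fell in fat body at day 5 against day 1, with a difference of -2.83 ± 0.17 (adjusted p = 1.21e-05). MSTRG.11146 measured 4.64 and 8.01 FPKM at day 1, 22.5 and 19.7 at day 5, 1.69 and 2.29 at day 9 and 1.29 and 1.15 at day 13 in fat body and fell there at day 9 against day 5, with a difference of -2.89 ± 0.35 (adjusted p = 0.000543). Its ovary libraries measured 0.0199 to 3.26 FPKM.

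The pair named larval cuticle protein A3A, after a mealworm protein, were nearly silent in ovary. MSTRG.10119 was at or below 0.209 FPKM in ovary and measured 56.6 and 74.9 FPKM at day 1, 31.6 and 19.5 at day 5, 11.8 and 7.88 at day 9 and 0.0842 and 0.261 at day 13 in fat body, lower at each sampled day than the one before. It fell at day 13 against day 9, with a difference of -3.19 ± 0.25 (adjusted p = 0.000136). MSTRG.8606 was at or below 0.527 FPKM in ovary and measured 3.79 and 5.26 FPKM at day 1, 17.3 and 11.99 at day 5, 0.216 and 0.545 at day 9 and 0.0919 and 0 at day 13 in fat body. It peaked at day 5 and fell at day 9 against day 5, with a difference of -3.49 ± 0.24 (adjusted p = 2.03e-05). The other larval-named members stayed at or below 6.05 FPKM in every library, and LCP-17 (10436) was the one whose tissue difference was not called (-0.60 ± 0.26 (adjusted p = 0.0553)).

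Of the 5 pupal-named members, MSTRG.1756 was higher and 4 lower in ovary (57.4% of all genes were higher and 24.9% lower). Pupal cuticle protein (MSTRG.1623) measured 16.8 and 21.6 FPKM at day 1, 7.20 and 0.129 at day 5, 3.78 and 6.23 at day 9 and 9.73 and 0 at day 13 in ovary, and 28.8 and 56.4 FPKM at day 1, 469 and 396 at day 5, 4.56 and 4.18 at day 9 and 2.06 and 1.43 at day 13 in fat body. Only the day 1 and day 5 fat body libraries stood above the ovary range, and the ovary replicates of days 5 and 13 disagreed, with replicate 2 at or near 0. In fat body it fell at day 9 against day 5, with a difference of -6.33 ± 1.04 (adjusted p = 0.00326). That call was lost with a pseudocount of 0.1 in place of 1. Edg-78E-like MSTRG.3625 measured 0.971 to 4.55 FPKM in ovary, and 27.6 and 290.4 FPKM at day 1, 587 and 54.6 at day 5, 27.9 and 32.7 at day 9 and 12.7 and 2.12 at day 13 in fat body. Its fat body replicates lay far apart at days 1 and 5, in opposite order, and no step was called. Edg-78E-like MSTRG.6707 was at or below 0.410 FPKM in ovary and measured 19.96 and 20.4 FPKM at day 1, 34.2 and 44.3 at day 5, 27.5 and 13.7 at day 9 and 1.66 and 0.551 at day 13 in fat body. Its tissues did not overlap, and it fell in fat body at day 13 against day 9, with a difference of -3.33 ± 0.32 (adjusted p = 0.000377). Pupal cuticle protein G1A-like (MSTRG.4912) was at or below 0.457 FPKM in ovary and measured 51.999 and 22.1 FPKM at day 1, 95.4 and 85.6 at day 5, 8.25 and 10.1 at day 9 and 0.683 and 0.240 at day 13 in fat body, where it fell at day 9 against day 5, with a difference of -3.17 ± 0.32 (adjusted p = 0.000217).

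Both resilins were lower in ovary than in fat body, on different schedules. Pro-resilin-like (MSTRG.5028) measured 3.53 and 6.68 FPKM at day 1, 10.1 and 18.2 at day 5, 2.07 and 1.65 at day 9 and 3.01 and 2.83 at day 13 in ovary, and 14.4 and 52.5 FPKM at day 1, 899.9 and 1320.2 at day 5, 484 and 315 at day 9 and 142 and 52.7 at day 13 in fat body. Day 5 was the highest day in both tissues, and fat body stayed above its day 1 range at day 9. It rose in fat body by 5.25 ± 0.60 at day 5 against day 1 (adjusted p = 0.00056), a call lost in a fit to only those 4 libraries. In ovary the difference at day 9 against day 5 was -2.35 ± 0.60 (adjusted p = 0.0109), lost without day 5 replicate 2 (-1.96) or day 9 replicate 2 (-2.25). Pro-resilin (MSTRG.4695) measured 5.65 and 2.82 FPKM at day 1, 3.97 and 4.20 at day 5, 0.269 and 0.372 at day 9 and 0.365 and 0.158 at day 13 in ovary, and 66.3 and 67.7 FPKM at day 1, 38.2 and 22.2 at day 5, 6.82 and 6.15 at day 9 and 0.282 and 0.743 at day 13 in fat body. Its level was highest at day 1 in fat body, and it fell in both tissues at day 9 against day 5, with a difference of -1.95 ± 0.29 (adjusted p = 0.000474) in ovary and -2.01 ± 0.29 (adjusted p = 0.00163) in fat body.

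Of the 10 members of the chitinase family, 0 were called higher and 6 lower in ovary, 1 of them lost without any 1 of 8 libraries, as given below. Among all genes 82.3% were called, 57.4% higher and 24.9% lower. Of the 10, 4 had their highest group mean in ovary, against 3 of the 42 structural members. Endochitinase (MSTRG.6083), an enzyme that cuts within chitin chains, was on at day 1 in both tissues. It measured 174 and 484 FPKM at day 1, 1.41 and 0.887 at day 5, 0.513 and 0.512 at day 9 and 0.672 and 0.882 at day 13 in ovary. The values were 67.4 and 82.4 FPKM at day 1, 1.25 and 2.28 at day 5, 0.949 and 1.47 at day 9 and 1.12 and 0.684 at day 13 in fat body. All 12 later libraries were at or below 2.28 FPKM. It fell at day 5 against day 1 in both tissues, with a difference of -7.09 ± 0.39 (adjusted p = 5.34e-06) in ovary and -4.80 ± 0.39 (adjusted p = 8.04e-05) in fat body, and no later step was called. Over the 4 days the tissues were not called different (0.24 ± 0.20 (adjusted p = 0.272)).

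Probable chitinase 3 is the name of a pair of members that behaved differently. MSTRG.10092 measured 13.1 and 9.71 FPKM at day 1, 7.80 and 5.67 at day 5, 0.590 and 0.551 at day 9 and 0.671 and 0.723 at day 13 in ovary, and 190.3 and 219 FPKM at day 1, 148 and 136 at day 5, 34.9 and 31.99 at day 9 and 6.63 and 0.900 at day 13 in fat body. Ovary libraries were below fat body libraries on each of the 4 days, at day 13 by the smallest margin. The tissue difference was -3.48 ± 0.24 (adjusted p = 1.31e-07), and it fell at day 9 against day 5 in ovary, with a difference of -2.29 ± 0.47 (adjusted p = 0.00338). It fell in fat body at the same step, with a difference of -2.05 ± 0.47 (adjusted p = 0.0191), a call lost without any 1 of those 4 libraries (-2.12 to -1.99). It fell there again at day 13 against day 9, with a difference of -3.18 ± 0.47 (adjusted p = 0.00404), a call lost in a fit to only those 4 libraries. MSTRG.10860 measured 13.2 and 21.03 FPKM at day 1, 11.5 and 13.1 at day 5, 2.07 and 1.75 at day 9 and 1.64 and 0.805 at day 13 in ovary, and 6.23 and 11.1 FPKM at day 1, 11.4 and 11.8 at day 5, 10.2 and 4.44 at day 9 and 12.9 and 4.66 at day 13 in fat body. It fell in ovary at day 9 against day 5, with a difference of -2.19 ± 0.46 (adjusted p = 0.00352), and no step was called in fat body. Its difference between the tissues was -0.61 ± 0.23 (adjusted p = 0.029), a call lost without any 1 of 8 libraries (-0.45 to -0.61), namely ovary day 1 replicate 1, day 5 replicate 1, day 9 replicate 2 and day 13 replicate 2, and fat body day 1 replicate 2, day 5 replicate 2, day 9 replicate 1 and day 13 replicate 1.

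Probable chitinase 2 (MSTRG.4884) was present throughout, at 24.2 and 17.7 FPKM at day 1, 70.6 and 39.1 at day 5, 26.8 and 24.6 at day 9 and 41.5 and 40.2 at day 13 in ovary and 68.98 and 63.4 FPKM at day 1, 53.7 and 53.6 at day 5, 24.5 and 19.5 at day 9 and 22.4 and 9.70 at day 13 in fat body. Ovary lay below fat body at day 1 and above it at days 9 and 13, with overlap at day 5. The difference over the 4 days was -0.01 ± 0.17 (adjusted p = 0.973). In ovary it rose by 1.303 ± 0.35 (adjusted p = 0.0224) at day 5 against day 1, lost without day 1 replicate 2 (1.09) or day 5 replicate 1 (0.89). It fell there at day 9 against day 5 (-1.01 ± 0.35 (adjusted p = 0.0416)), lost without day 5 replicate 1 (-0.59) or either day 9 library (-1.07 and -0.95) and with median-of-ratios scaling (-0.74). The fat body fall at day 9 against day 5 (-1.26 ± 0.35 (adjusted p = 0.0419)) was lost without any 1 of the 4 libraries (-1.42 to -1.10) and under both other scalings. Chitinase-3-like protein 2, named after a human chitinase-like protein, has 2 members. MSTRG.10705 measured 6.35 to 11.6 FPKM in ovary, against 10.99 to 17.1 FPKM in fat body, with a difference of -0.70 ± 0.09 (adjusted p = 3.59e-05), and MSTRG.10706 measured 0 to 8.48 FPKM in ovary, against 5.01 to 8.09 FPKM in fat body, with a difference of -0.33 ± 0.33 (adjusted p = 0.368). Chitinase-3-like protein 1 (MSTRG.10893) was high in single libraries: 11.6 FPKM in the first day 1 ovary library and 9.24 FPKM in the second day 9 fat body library, against 0.144 and 1.15 FPKM in their replicates. Its difference between the tissues was -0.58 ± 0.50 (adjusted p = 0.304).

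Imaginal disc growth factors (Idgf) are secreted proteins with a chitinase-like fold that, in Drosophila, lack chitinase activity and take part in growth and cuticle formation. Both members of that name had their highest fat body mean at day 9. Idgf1 (MSTRG.7902) measured 18.2 and 17.3 FPKM at day 1, 14.4 and 10.5 at day 5, 5.33 and 5.66 at day 9 and 3.20 and 4.90 at day 13 in ovary, and 119 and 123 FPKM at day 1, 134 and 154 at day 5, 246 and 346 at day 9 and 52.4 and 136 at day 13 in fat body. Every ovary library was below every fat body library, with a difference of -3.93 ± 0.18 (adjusted p = 5.23e-09). It was highest in fat body at day 9 and differed there by -1.78 ± 0.36 (adjusted p = 0.0159) at day 13 against day 9, a call lost without day 9 replicate 2 (-1.53) or day 13 replicate 1 (-1.10). Its fat body difference at day 9 against day 5 was not called (1.02 ± 0.36 (adjusted p = 0.113)).

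The Idgf4 locus (MSTRG.1522), which also carries an uncharacterized product, measured 415 and 371 FPKM at day 1, 187 and 196 at day 5, 113 and 118 at day 9 and 142 and 86.1 at day 13 in ovary, and 248 and 379 FPKM at day 1, 367 and 386 at day 5, 743 and 1091 at day 9 and 582 and 673 at day 13 in fat body. Within a day, the tissues overlapped at day 1 only, and the difference over the 4 days was -1.51 ± 0.13 (adjusted p = 1.04e-06). The ovary and fat body steps at day 9 against day 5 differed by -1.98 ± 0.37 (adjusted p = 0.00352). The fat body rise at that step was 1.26 ± 0.26 (adjusted p = 0.0117), lost without day 5 replicate 1 (1.22), day 5 replicate 2 (1.29) or day 9 replicate 2 (0.98). Chitinase-like protein CG5210 (MSTRG.6354), named after a Drosophila gene, measured 42.7 and 35.996 FPKM at day 1, 60.4 and 51.3 at day 5, 47.8 and 41.9 at day 9 and 35.1 and 35.7 at day 13 in ovary, and 79.4 and 93.02 FPKM at day 1, 308 and 326 at day 5, 491 and 723 at day 9 and 578 and 773 at day 13 in fat body. No ovary library reached the lowest fat body library, with a difference of -2.88 ± 0.10 (adjusted p = 6.68e-10). It rose in fat body at day 5 against day 1 by 1.87 ± 0.20 (adjusted p = 0.000364). At day 9 against day 5 its fat body difference was 0.91 ± 0.20 (adjusted p = 0.0154), lost without day 5 replicate 1 (0.87), day 5 replicate 2 (0.95) or day 9 replicate 2 (0.63), and the steps of ovary and fat body differed by -1.22 ± 0.28 (adjusted p = 0.0106).

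Set against each other, the age steps of the 2 tissues differed for 6 members in the positive and 7 in the negative direction at day 5 against day 1 (ovary minus fat body; 7.96% of all genes were called, 4.11% positive and 3.85% negative), for 14 and 7 at day 9 against day 5 (26.3% of all genes, 1026 of the 10213 positive and 1661 negative), and for 11 and 2 at day 13 against day 9, or 11 and 4 with quantile normalization (5.5% of all genes, 3.76% positive and 1.74% negative). Fits to only the groups compared called 1 member at the first of these, 22 at the second and 8 at the last. Leaving out 1 library left 7 to 14 calls at the first and 4 to 15 at the last. They were 8, 7, 8 and 8 at the first without ovary day 5 replicates 1 and 2 and fat body day 5 replicates 1 and 2 in turn, and 4, 6, 4, 6, 7 and 8 at the last without ovary day 9 replicates 1 and 2, ovary day 13 replicates 1 and 2 and fat body day 9 replicates 1 and 2 in turn. Both tissues were called at the same step for 2 members at the first step, 8 at the second, of which 7 in the same direction, and 0 at the last. Joint calls were not counted over all genes, so these numbers have no share to be set against. At the second step 38.0% of all genes were called in ovary and 11.1% in fat body.

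Around the cuticle proteins, other steps of cuticle making were read from lists of product names. Of 15 genes of chitin precursor supply and recycling, 4 were higher and 9 lower in ovary (57.4% of all genes were higher and 24.9% lower). Glutamine-fructose-6-phosphate aminotransferase, the entry enzyme to the amino sugars from which chitin is built, has a pair of 2-like members that averaged 1.69 and 2.26 FPKM in ovary, against 64.3 and 57.6 FPKM in fat body over the 4 days. Both fell in fat body at day 9 against day 5: MSTRG.1383 to a mean of 9.98 FPKM at day 9, against 102 FPKM at day 5 (-3.23 ± 0.27 (adjusted p = 6.4e-05)), and MSTRG.1384 to 13.6 FPKM at day 9, against 116 FPKM at day 5 (-2.99 ± 0.54 (adjusted p = 0.00542)). Chitooligosaccharidolytic beta-N-acetylglucosaminidase (MSTRG.4972), which finishes the breakdown of chitin, fell in ovary to 45.8 FPKM at day 5, against 119.6 FPKM at day 1 (-1.36 ± 0.24 (adjusted p = 0.00292)), and to 6.94 FPKM at day 9 (-2.59 ± 0.24 (adjusted p = 1.9e-05)).

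Of 21 genes of cuticle tanning and cross-linking, 2 were higher and 15 lower in ovary, beside the same shares of all genes. In ovary 0 rose and 10 fell at day 9 against day 5, when 13.9% of all genes rose and 24.1% fell. Aromatic-L-amino-acid decarboxylase (MSTRG.2826), which makes dopamine for tanning, averaged 3.14 FPKM in ovary, against 62.2 FPKM in fat body (-3.71 ± 0.12 (adjusted p = 4.63e-10)). It rose in fat body to 159 FPKM at day 9, against 29.8 FPKM at day 5 (2.36 ± 0.25 (adjusted p = 0.000232)), and fell to 26.2 FPKM at day 13 (-2.56 ± 0.25 (adjusted p = 0.000388)). Laccase-1 (MSTRG.5987), of the oxidase family that cross-links cuticle, rose in ovary to 79.5 FPKM at day 5, against 13.2 FPKM at day 1 (2.49 ± 0.33 (adjusted p = 0.000742)), and fell to 10.96 FPKM at day 9 (-2.74 ± 0.33 (adjusted p = 0.000109)). Its fat body mean was 22.8 FPKM at day 9, against 152 FPKM at day 5 (-2.78 ± 0.33 (adjusted p = 0.000526)), a call lost in a fit to those 4 libraries alone. A yellow-like gene (MSTRG.8889), of a family of pigment and tanning proteins, rose in fat body by 2.90 ± 0.27 at day 9 against day 5 (adjusted p = 0.000135).

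Of 49 apical matrix and mucin-like genes, 30 were higher and 12 lower in ovary, shares near those of all genes. In fat body 0 of them rose and 11 fell at day 9 against day 5, when 5.53% of all genes rose and 5.6% fell. Of 13 genes of the hormone signals and regulators of cuticle making, 8 were higher and 2 lower in ovary, again with the higher share near that of all genes. Grainyhead (MSTRG.8473), a transcription factor for epidermal barrier genes in Drosophila, averaged 4.29 FPKM at day 9 in ovary, against 1.17 FPKM at day 5, and rose by 1.29 ± 0.26 (adjusted p = 0.00313). Its fat body mean was 1.39 FPKM at day 9, against 5.83 FPKM at day 5, and it fell, with a difference of -1.52 ± 0.26 (adjusted p = 0.00419). The median differences of the 4 lists between the tissues were -0.77, -1.10, 0.69 and 0.84 in the order given, beside 0.58 for all genes. For these lists too, the counts follow in part from a floor passed in the higher group.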

How the data were processed

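Total RNA from ovary and fat body was sequenced. The deposited table holds 1 FPKM column per library, per the file headers, for 13759 genes named by StringTie. HISAT2 2.0, StringTie 1.3.0 and Bowtie 0.12.2 are named in the submitters' processing notes. The fly assembly is not given in the sources used here, and no coordinates are printed. Genes are named by the table's description and ID, since its symbols conflict with them: 1 of 53 members has a symbol that names a cuticle or chitin product.

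From the authors' FPKM values, log2(FPKM + 1) was tested with limma 3.58.1 (R 4.3.3), with 1 coefficient for each of the 8 groups and all 16 libraries, trend and robust moderation, and Benjamini-Hochberg adjustment over the 10213 genes with a group mean of at least 1 FPKM. Calls are at an adjusted p below 0.05. Depth is unknown, so no counting interval is given. The replicates are biological per the series text, with no word on shared animals. The procedure was tested on simulated data. Tables and figures were made with Python 3.11.15, pandas 2.3.3, numpy 2.4.6 and matplotlib 3.10.9.

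Named in each comparison are up to 5 called members per direction with the largest difference, no overlap of libraries and a mean of at least 5 FPKM. The 6 most abundant structural members and every chitinase are named too. Of the further lists, only a part of the called genes with the smallest p is named. The list of hormone signals and regulators is shown by grainyhead alone, and no apical matrix or mucin-like gene is named. Other members named, among them 192155, MSTRG.2120, MSTRG.3625, MSTRG.4695 and MSTRG.4912, were chosen after their values were seen. Members and lists were chosen with earlier results of these data known, the name patterns of the lists were narrowed after product names were seen, and the lists by annotation terms were added after seeing the data. Tried as alternatives were other scalings (median-of-ratios, quantile), a pseudocount of 0.1, a floor at 5 FPKM or none, moderation without trend, a replicate block, fits to only the groups compared, and leaving out each library.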

Additional observations from a re-analysis of the deposited data

Results flagged for a closer look

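The members below changed differently with age in ovary and in fat body, by a limma test of the difference itself (ovary step minus fat body step, on log2(FPKM + 1)). At day 5 against day 1, MSTRG.2469 (cuticle protein 8) differed by 3.12 ± 0.43, MSTRG.11142 (larval cuticle protein 8-like) by 2.78 ± 0.25, MSTRG.4911 (cuticle protein 63) by 2.47 ± 0.33, MSTRG.3011 (cuticle protein 7) by 1.76 ± 0.38 and MSTRG.2122 (SgAbd-3) by 1.01 ± 0.27. MSTRG.1623 (pupal cuticle protein) differed by -6.10 ± 1.47, MSTRG.5028 (pro-resilin-like) by -3.95 ± 0.85, MSTRG.6083 (endochitinase) by -2.29 ± 0.56, MSTRG.8606 (A3A) by -1.47 ± 0.34 and MSTRG.6354 (CG5210) by -1.37 ± 0.28. Their adjusted p lay between 0.000553 and 0.0489. The call of MSTRG.11142 held under every setting, and those of MSTRG.2469 and MSTRG.4911 with each library left out in turn. The others were lost when 1 library of some of the 8 was left out. MSTRG.3011 was lost without ovary day 5 replicate 1 (1.58), fat body day 1 replicate 1 (1.54) or fat body day 5 replicate 2 (1.59). MSTRG.5028 was lost without ovary day 1 replicate 2 (-3.57), ovary day 5 replicate 1 (-3.55) or either day 5 fat body library (-4.22 and -3.67). MSTRG.6354 was lost without ovary day 5 replicate 2 (-1.26), fat body day 1 replicate 1 (-1.26) or either day 5 fat body library (-1.41 and -1.33), and MSTRG.8606 without either day 5 ovary library (-1.46 and -1.48) or the first fat body library of day 1 (-1.27) or day 5 (-1.22). MSTRG.6083 was lost without any 1 of the 4 fat body or the 2 day 5 ovary libraries (-2.57 to -2.02). MSTRG.1623 was lost without any 1 library but ovary day 5 replicate 1 (-6.58 to -4.67), and MSTRG.2122 without any 1 but fat body day 1 replicate 2 (0.83 to 1.10).

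At day 9 against day 5, MSTRG.1623 differed by 7.28 ± 1.47, MSTRG.2130 (LCP-30) by 4.57 ± 0.57, MSTRG.3006 (cuticle protein 8) by 4.42 ± 0.35, MSTRG.11134 (SgAbd-5) by 3.92 ± 0.65 and MSTRG.6578 (cuticle protein 16.5) by 3.53 ± 0.30. In the other direction MSTRG.4089 (cuticle protein 16.8) differed by -4.40 ± 0.52, MSTRG.11145 (larval cuticle protein 8-like) by -3.66 ± 0.69, MSTRG.7902 (Idgf1) by -2.05 ± 0.51, MSTRG.1522 (the Idgf4 locus) by -1.98 ± 0.37 and MSTRG.6354 by -1.22 ± 0.28. All held with each library left out in turn except MSTRG.7902, which was lost without ovary day 5 replicate 1 (-1.84), fat body day 5 replicate 1 (-1.95) or fat body day 9 replicate 2 (-1.81).

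At day 13 against day 9, MSTRG.11139 (the SgAbd-6 locus) differed by 4.59 ± 1.00, MSTRG.3009 (cuticle protein 7) by 3.68 ± 0.70, MSTRG.10092 (probable chitinase 3) by 3.29 ± 0.67, MSTRG.6707 (Edg-78E-like) by 3.24 ± 0.45 and MSTRG.10119 (A3A) by 3.16 ± 0.35, while MSTRG.4089 differed by -2.19 ± 0.52 and MSTRG.2122 by -1.10 ± 0.27. MSTRG.6707 and MSTRG.10119 held under every setting. MSTRG.3009 was lost without ovary day 9 replicate 1 (3.70) or ovary day 13 replicate 2 (3.47). MSTRG.10092 was lost without any 1 of the 4 ovary or the 2 day 9 fat body libraries (3.23 to 3.35), and MSTRG.11139 without any 1 of the 4 ovary libraries or the second fat body library of day 9 or day 13 (3.43 to 4.85). MSTRG.4089 was lost without either day 9 ovary library, ovary day 13 replicate 1, fat body day 9 replicate 1 or fat body day 13 replicate 2 (-2.25 to -1.78), and MSTRG.2122 without any 1 library but fat body day 13 replicate 1 (-1.24 to -0.88).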

How the results depend on the processing

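Counts of members called are given with the value as reported in parentheses. In fits to only the groups compared, 3 (8) members were called in ovary at day 5 against day 1, 0 (2) at day 13 against day 9, 5 (22) in fat body at day 5 against day 1, 0 (17) at day 13 against day 9, and 1 (13) and 8 (13) in the first and last differences between the tissues' steps. That fit uses 4 or 8 libraries and fewer residual degrees of freedom, and was not run for the tissue comparison, which uses every library. A pseudocount of 0.1 gave 14 (22) in fat body at day 5 against day 1 and 5 (13) in the first difference between steps; the cause was not tested. Leaving out 1 library gave 44 to 48 (46) between tissues, 6 to 10 (8), 9 to 15 (15) and 1 to 2 (2) at the ovary steps, 16 to 18 (22), 18 to 22 (25) and 10 to 17 (17) at the fat body steps, and 7 to 14 (13), 17 to 21 (21) and 4 to 15 (13) in the differences between steps. With 1 library left in a group, that library is assumed to vary like the others.

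With the replicate block the counts were 45, 8, 15, 2, 22, 24, 17, 13, 22 and 10, in the order of the comparisons above. Whether equal replicate numbers in the 2 tissues mark shared animals is not known. Differences between replicates were correlated over all tested genes for 28 pairs of groups, and 1 lay above 0.1 (range -0.149 to 0.146). Ovary and fat body of the same day gave 0.083, 0.016, 0.051 and 0.041 at days 1, 5, 9 and 13. Such correlations cannot show whether animals were shared. Of 182 called differences of single members, 91 held under every setting and 0 reversed. Of 169 in the further lists, 87 held. Between tissues, beta-hexosaminidase fdl (MSTRG.8306) turned to -0.0413 with median-of-ratios scaling and -0.108 with quantile normalization, and a yellow-like gene (MSTRG.8907) to -0.034 with median-of-ratios scaling. The scalings moved the median of all genes at the age steps, which lay between -0.15 and 0.01 as deposited, to between -0.02 and 0.06. In the differences between steps that median lay between -0.10 and 0.11 as deposited, and between -0.05 and 0.04 under the scalings. The share of calls that were higher changed with them: it was 31.24%, 42.74% and 49.33% (as deposited, median-of-ratios, quantile) in ovary at day 5 against day 1, 36.56%, 53.72% and 49.84% at day 9 against day 5, 26.15%, 50.08% and 47.44% in fat body at day 5 against day 1, and 24.21%, 39.94% and 44.87% at day 13 against day 9. In the differences between steps it was 38.18%, 49.56% and 51.64% at day 9 against day 5, and 68.33%, 54.17% and 50.66% at day 13 against day 9. Having 2 libraries per group and an unknown depth limit what can be said of members near 1 FPKM.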

Other observations

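Cuticle genes are also found in the table by annotation terms instead of product names, in a list added after seeing the data. Outside the 53 members, 24 tested genes carry a gene ontology term for structural constituents of cuticle, and 35 of the 42 structural members carry one. Of these 24, 0 were higher and 20 lower in ovary than in fat body (limma, median difference -1.08), when 57.4% of all genes were higher and 24.9% lower. In fat body 1 rose and 12 fell at day 9 against day 5, when 5.53% of all genes rose and 5.6% fell. For this list too, the counts follow in part from a floor passed in the higher tissue or on the higher day. Their product names are often those of unrelated proteins, such as glycine-rich cell wall structural protein (MSTRG.2134), which measured 38.7 and 34.5 FPKM at day 1, 340.1 and 405 at day 5, 234 and 174 at day 9 and 9.41 and 4.57 at day 13 in fat body. It rose there by 3.31 ± 0.43 at day 5 against day 1 (adjusted p = 0.000989) and fell at day 13 against day 9, with a difference of -4.73 ± 0.43 (adjusted p = 0.000282), a call lost in a fit to only those 4 libraries. MSTRG.2125, an uncharacterized protein, measured 42.1 and 55.4 FPKM at day 1, 116 and 47.4 at day 5, 0.0579 and 0.255 at day 9 and 0.290 and 0.0577 at day 13 in fat body and fell at day 9 against day 5, with a difference of -6.03 ± 0.37 (adjusted p = 1.25e-05). Both were chosen after their values were seen.

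A pair of genes outside the members carry the enzyme class of chitin synthase, which polymerises chitin. MSTRG.6253 was at or below 0.536 FPKM in ovary and measured 11.4 and 25.1 FPKM at day 1, 25.8 and 23.9 at day 5, 3.76 and 2.19 at day 9 and 0.940 and 0.0429 at day 13 in fat body. Every ovary library was below 1 FPKM, and the tissue difference was -2.55 ± 0.18 (adjusted p = 1.98e-07). In fat body it fell at day 9 against day 5, with a difference of -2.73 ± 0.37 (adjusted p = 0.000984). The other, 66239, stayed at or below 1.68 FPKM in every library.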
